A study of Mus musculus with 36 samples.

Results

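The change of the transcriptome of the digenic mouse kidney over the first days after birth was measured by comparing 3 whole-kidney RNA libraries of digenic mice at postnatal day 3 (P3) with 3 of digenic mice at the day of birth (P0). These 6 libraries were chosen by their labelled genotype and age from a series of 36. Digenic mice are homozygous for a loss of Pkhd1 (Pkhd1-/-) and for the RC allele of Pkd1 (Pkd1 RC/RC). The other 6 libraries used most are of wild-type (WT) kidneys at P3 and P0, 3 each, and the single mutants Pkd1-RC/RC and Pkhd1-/- at the same ages, again 3 each, serve for tests of difference. The remaining libraries of the series, of the same genotypes at postnatal day 12 (P12), entered the fit from which the spread was estimated. All mice were C57BL/6, no treatment is labelled, and sequence was read from total RNA of frozen kidneys as 150 bp read pairs. The labels do not name litters; p-values rest on the spread between libraries, which may be technical in part.

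Pkd1 encodes polycystin-1, a large membrane protein that works with the channel polycystin-2 in the primary cilium, and its mutations cause dominant polycystic kidney disease. Pkhd1 encodes fibrocystin, a ciliary membrane protein whose loss causes the recessive form. In the mouse, nephrons still form in the first days after birth: progenitors expressing Six2 and Cited1 are then used up, and young tubules turn on the transporters and enzymes of the working nephron. Interferons are cytokines that act through transcription factors of the STAT and IRF families and turn on genes of antiviral defence, antigen presentation and cell-autonomous immunity.

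Levels are CPM (counts scaled to the size of the library, with TMM factors), listed in the order of replicates 1, 2 and 3. Changes are log2 fold changes, P3 over P0, ± SE. Adjusted p-values are from the quasi-likelihood test of edgeR, adjusted over 18049 genes by the Benjamini-Hochberg procedure, and a gene was called at an adjusted p under 0.05. Total counts ran from 69388213 to 77637005 in the P3 libraries and from 59992925 to 74249842 in the P0 libraries. Kidney markers were present in every library: the 14 podocyte markers summed to 1480.0, 1484 and 1314 CPM in the digenic P3 libraries and to 1237, 1360.0 and 1493 CPM in the P0 libraries, and the 36 proximal tubule markers to 7415, 7726 and 9392 CPM at P3 and 5905, 6918 and 6883 CPM at P0. Digenic P3 replicate 3 stood apart by adrenal transcripts. The 10 adrenal markers summed to 17.0, 20.9 and 515 CPM in the P3 libraries, against 25.0, 30.7 and 34.7 CPM at P0, and counts are given below also without that library where it matters. In WT they summed to 22.7, 49.6 and 22.7 CPM at P3 and 88.0, 39.4 and 25.4 CPM at P0. WT P3 replicate 2 and WT P0 replicate 1 thus also stood above their groups, by less. By the column headers all 3 digenic P3 kidneys were female and the P0 kidneys were male, female and male. In bulk tissue, fewer cells of a type and less RNA per cell cannot be told apart.

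Pkhd1 (ENSMUSG00000043760, chromosome 1: 20057779 to 20618064, GRCm38) stayed low at both ages. It stood at 11.3, 11.3 and 9.97 CPM in the digenic P3 libraries and at 9.54, 9.61 and 11.2 CPM in the digenic P0 libraries, against 91.5, 61.6 and 103 CPM in WT at P3 and 79.6, 77.0 and 65.1 CPM in WT at P0. Every digenic library lay below every WT library, and the change between ages was 0.10 ± 0.218 (adjusted p = 0.810). Pkd1, in which RC is a point change that the level cannot show, had 84.0, 80.8 and 68.8 CPM at P3 and 63.3, 79.0 and 65.5 CPM at P0, with overlapping libraries and a change of 0.17 ± 0.153 (adjusted p = 0.531). Pkd2, which encodes polycystin-2, had 167, 164 and 150.4 CPM at P3 and 117, 135 and 112 CPM at P0. All 3 P3 libraries lay above all 3 P0 libraries, yet the change of 0.40 ± 0.195 did not pass the test (adjusted p = 0.198). In WT kidneys Pkd2 rose by 0.90 (adjusted p = 0.00178), and the difference between the genotypes was -0.50 ± 0.276 (adjusted p = 0.568).

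From P0 to P3, 1760 of 18049 genes changed in digenic kidneys (9.75%), with 1070 higher at P3 (5.93%) and 690 lower (3.82%). Of these, 518 rose and 104 fell at least 2-fold. Among lists with called members, those of the interferon response and antigen presentation had the highest medians, followed by intercalated cells and the proximal tubule. Called genes of tubular injury, nephron progenitors and fetal growth mostly fell. The libraries of P3 lay all above those of P0 for 15.8% of genes and all below for 14.7%. The number called was 770 without digenic P3 replicate 1, 865 without P0 replicate 3, 1145 without P3 replicate 2 and 1353 without P3 replicate 3. With the 6 digenic libraries alone in the fit it was 750.

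**Figure D1:**
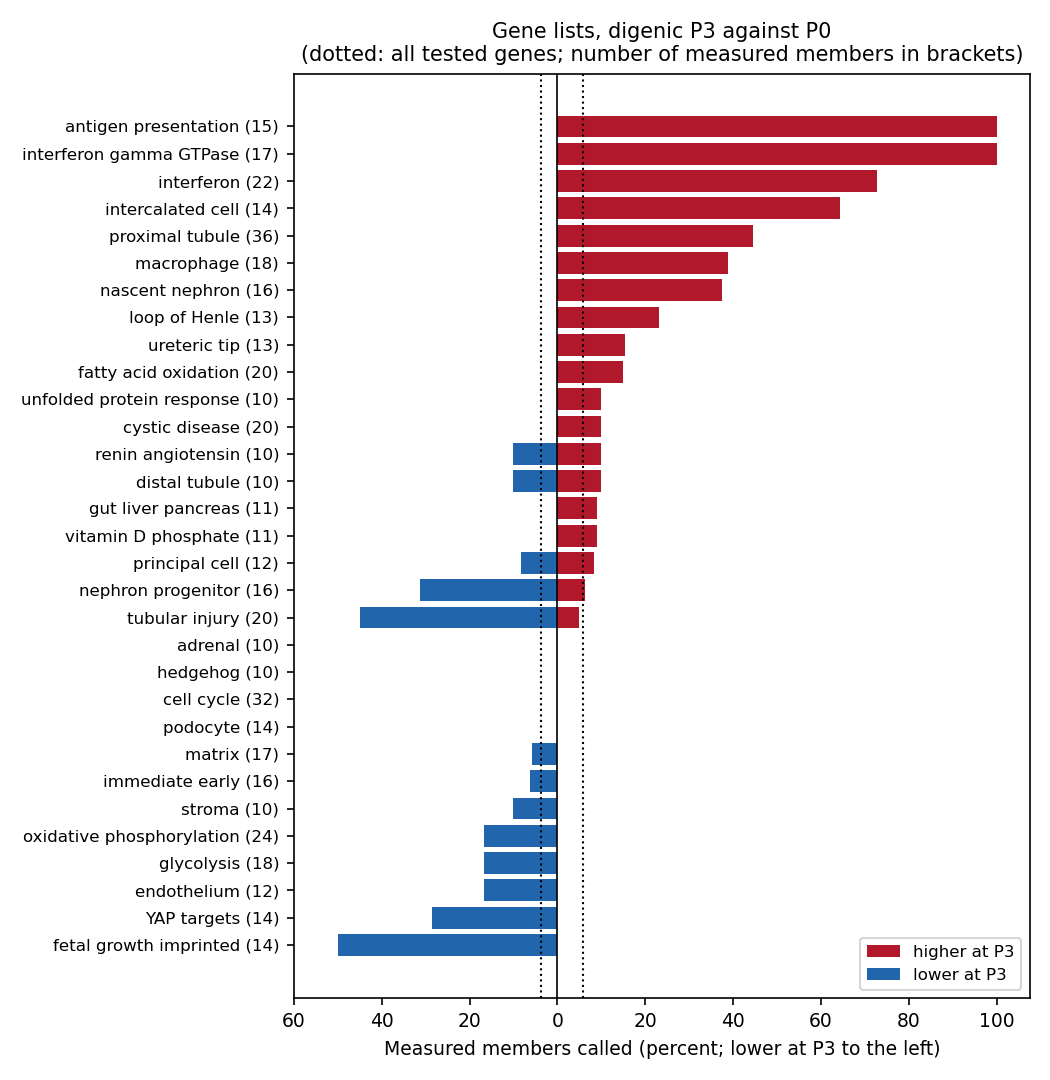
Share of the measured members of each gene list that were called in digenic P3 against P0 kidneys, to the right for genes higher at P3 and to the left for genes lower at P3. Dotted lines give the shares over all 18049 tested genes (5.93% and 3.82%), and the bars of antigen presentation and of the interferon-gamma GTPase list reach 100%.

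The strongest rises were in the interferon-inducible GTPases, which load onto the membranes of intracellular pathogens, and in the interferon-gamma targets listed with them. All 17 measured members of this list rose in digenic kidneys, with a median change of 4.54, against 0.00 over all tested genes. In WT kidneys 0 of the 17 were called, where 24.7% of all genes were, and their median was -0.36. The summed level of the list was 973, 4288 and 231 CPM in the digenic P3 libraries and 105, 105 and 103 CPM in the digenic P0 libraries, a mean ratio of 17.5. The P0 libraries were alike, while the highest P3 library held 18.5 times the lowest. Even that lowest library, replicate 3, lay at 2.20 times the highest P0 library. It was the library with adrenal transcripts, and the part of that in its level was not tested. Replicate 2 was highest, replicate 1 next and replicate 3 lowest for 17 of the 17 genes, an order found in 21.2% of all genes.

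Gbp6, a guanylate-binding protein (ENSMUSG00000079362, chromosome 5: 105214907 to 105293695), had 60.3, 233 and 5.93 CPM at P3 and 1.24, 0.574 and 1.15 CPM at P0. Its change of 6.67 ± 1.10 had an adjusted p of 0.000433. Gbp2, of the same family, stood at 77.1, 537 and 13.4 CPM at P3 and 3.38, 2.67 and 3.02 CPM at P0 (change 6.11 ± 1.05, adjusted p = 0.000612). In both genes every P3 library lay above every P0 library, and the P3 libraries lay far apart. Iigp1, an immunity-related GTPase, had 148, 806 and 19.6 CPM at P3 and 8.87, 5.38 and 12.4 CPM at P0 (change 5.19 ± 1.10, adjusted p = 0.00373). Igtp and Irgm2, which share a stretch of chromosome 11 in the annotation so that their reads may be split between them, changed by 5.04 ± 0.881 (adjusted p = 0.000686) and 3.93 ± 0.663 (adjusted p = 0.000488). Tgtp1 and Tgtp2, near-identical copies whose counts are uncertain for the same reason, changed by 6.51 ± 1.19 and 6.91 ± 1.26 (adjusted p = 0.000975 for both). Gbp4 changed by 4.54 ± 0.781 and Ifi47, which overlaps an olfactory receptor gene, by 4.40 ± 0.795, with adjusted p-values of 0.000513 and 0.000871.

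The list also holds regulators and a chemokine. Irf1, the transcription factor that carries much of the interferon-gamma response, had 52.7, 191 and 19.9 CPM at P3 and 10.04, 11.2 and 10.7 CPM at P0, without overlap (change 3.05 ± 0.512, adjusted p = 0.000433). Nlrc5, the transactivator of MHC class I genes, stood at 14.3, 41.8 and 2.34 CPM at P3 and 0.637, 0.601 and 0.582 CPM at P0 (change 5.0 ± 0.755, adjusted p = 0.000167). Ciita, its counterpart for MHC class II, averaged 16.0 ± 18.9 CPM at P3 and 0.909 ± 0.336 CPM at P0 (SD, n = 3 libraries each). Ciita changed by 4.12 ± 0.774 (adjusted p = 0.00111), and the chemokine Cxcl10 by 3.78 ± 0.849 (adjusted p = 0.00533). Without P3 replicate 2, the highest library, the median of the list was 2.77 and 16 of 17 were called. Without P3 replicate 3 it was 5.07 with 17 called. With the 6 digenic libraries alone in the fit, the median was 4.54 and 0 of 17 were called.

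The classical type I interferon genes had smaller changes, and their highest digenic P3 sum was 3.18 times the lowest. Of 22 measured, 16 rose and 0 fell in digenic kidneys, with a median of 1.33, whereas in WT kidneys 0 rose (12.8% of all genes did) and 13 fell (11.9%), with a median of -1.01. Their sum was 696, 1453 and 456 CPM in digenic P3 libraries and 351, 327 and 372 CPM in digenic P0 libraries. In WT kidneys the sum was 264, 275 and 273 CPM at P3 and 488, 528 and 503 CPM at P0, so that WT stood above digenic at P0 and below it at P3. At P0 14 of the 22 genes had all digenic libraries below all WT libraries, against 11.8% of all genes. At P3 20 of 22 had all digenic libraries above all WT libraries, against 9.78% of all genes.

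Stat2, a transcription factor of the type I response, had 28.3, 51.7 and 20.7 CPM at P3 and 8.61, 10.1 and 13.3 CPM at P0 (change 1.65 ± 0.271, adjusted p = 0.000295), and this call was kept in each of 16 alternatives. All P3 libraries lay above all P0 libraries. Ifit1, which binds foreign RNA, had 12.5, 28.5 and 8.38 CPM at P3 and 2.53, 2.11 and 3.27 CPM at P0. It changed by 2.64 ± 0.491 (adjusted p = 0.000893) in digenic kidneys and by -1.54 ± 0.477 (adjusted p = 0.0195) in WT. Oasl2, of the oligoadenylate synthetase family, changed by 2.15 ± 0.384 (adjusted p = 0.000671), Isg15, a ubiquitin-like modifier, by 1.80 ± 0.419 (adjusted p = 0.00644), and Irf7, a factor that amplifies the type I response, by 1.56 ± 0.403 (adjusted p = 0.0130). Rsad2 at -0.09 ± 0.201 (adjusted p = 0.835) and Ifit3 at 0.26 ± 0.311 (adjusted p = 0.656) did not pass. Without P3 replicate 2, 7 of the 22 were called, with a median of 0.95. With the 6 digenic libraries alone 8 were called.

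Factors activated by interferon are known to act through short motifs in promoters, and promoters of 6 of these genes are printed for that reason. RefSeq (GRCm38.p6) gave promoters for 15 of the 22 type I genes and 12 of the 17 GTPase-list genes. The letters GAAA, any 2 bases and GAAA again, a core of the interferon-stimulated response element, were searched on both strands in the 250 bases before the start. They were in 7 of the 15 and 10 of the 12, and in 365 (3.07%) of the 11894 measured genes with a promoter. A gene was counted if any of its promoters held a match. Counted by promoter, they were in 978 (2.98%) of all 32851 of RefSeq. Of 12 antigen-presentation genes with a promoter, 1 held them. Each stretch runs 5′ to 3′ on the strand of the gene and ends at the base before its RefSeq start, and capitals mark the match, in which TTTC takes the place of GAAA where it lies on the other strand. They are the called members with the smallest adjusted p that hold a match: Stat2 (chr10:128270261-128270497, plus strand), Ifit1 (chr19:34640769-34640888, plus strand) and Oas1a (chr5:120907526-120907645, minus strand) of the type I list, and Irgm2 (chr11:58214857-58214976, plus strand), Gbp2 (chr3:142620543-142620662, plus strand) and Igtp (chr11:58199436-58199555, plus strand) of the GTPase list.
Stat2: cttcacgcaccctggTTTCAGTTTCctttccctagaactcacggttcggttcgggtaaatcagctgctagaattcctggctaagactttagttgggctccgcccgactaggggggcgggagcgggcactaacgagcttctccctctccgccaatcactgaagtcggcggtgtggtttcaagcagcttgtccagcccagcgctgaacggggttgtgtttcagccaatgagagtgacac
Ifit1: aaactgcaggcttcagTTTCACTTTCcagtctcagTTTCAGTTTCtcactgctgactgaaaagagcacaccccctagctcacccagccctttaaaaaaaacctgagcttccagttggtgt
Oas1a: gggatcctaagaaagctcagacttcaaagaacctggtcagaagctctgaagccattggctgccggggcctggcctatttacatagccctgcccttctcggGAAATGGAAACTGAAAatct
Irgm2: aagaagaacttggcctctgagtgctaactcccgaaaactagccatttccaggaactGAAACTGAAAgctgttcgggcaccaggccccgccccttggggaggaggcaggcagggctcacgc
Gbp2: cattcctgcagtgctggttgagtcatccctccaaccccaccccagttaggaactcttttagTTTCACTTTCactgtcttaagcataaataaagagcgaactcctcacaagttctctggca
Igtp: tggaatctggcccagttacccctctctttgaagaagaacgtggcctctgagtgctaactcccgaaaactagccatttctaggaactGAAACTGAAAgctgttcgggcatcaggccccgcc
In Stat2 the match begins 222 bases before the start. Ifit1 and Oas1a each hold 2 matches, which in Oas1a overlap, and Irgm2, Gbp2 and Igtp hold 1 each within the last 64 bases. A match describes letters and does not show that a factor was bound.

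Genes of antigen presentation rose, 15 of 15 measured, where 5.93% of all genes did, with a median of 2.08. In WT 0 of the 15 were called, where 24.7% of all genes were, and their median was -0.10. All digenic P3 libraries lay above all digenic P0 libraries for 12 of the 15 (15.8% of all genes). They lay above all WT P3 libraries for 7 of the 15 (9.78% of all genes). H2-Aa, a chain of MHC class II, had 100.2, 116 and 4.42 CPM at P3 and 2.59, 1.67 and 2.68 CPM at P0 (change 5.0 ± 0.769, adjusted p = 0.000249). Cd74, the class II chaperone, had 227, 294 and 12.6 CPM at P3 and 8.39, 7.11 and 8.90 CPM at P0 (change 4.45 ± 0.703, adjusted p = 0.000297). For both genes replicates 1 and 2 were close to each other and replicate 3 was far lower, below each WT P3 library, which held 4.61, 6.18 and 8.78 CPM of H2-Aa. Psmb9, an immunoproteasome subunit, had 31.7, 90.2 and 6.13 CPM at P3 and 2.96, 1.99 and 2.02 CPM at P0 (change 4.20 ± 0.662, adjusted p = 0.000263). Tap1, the peptide transporter for class I, changed by 3.38 ± 0.591 (adjusted p = 0.000669), and B2m, the light chain of class I, by 1.85 ± 0.364 (adjusted p = 0.00167). H2-DMb1, which loads peptides onto class II, changed by 1.90 ± 0.320 (adjusted p = 0.000388). Without P3 replicate 2, 13 of 15 were called, and with the 6 digenic libraries alone 0 were.

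Macrophage markers changed less. Of 18 measured, 7 rose and 0 fell (median 0.66), where 5.93% of all genes rose and 3.82% fell. The list summed to 448, 576 and 344 CPM in the digenic P3 libraries and 322, 330.4 and 295 CPM in the P0 libraries. Aif1, a cytoskeletal protein of macrophages, had 5.76, 7.35 and 3.27 CPM at P3 and 1.70, 0.868 and 0.915 CPM at P0 (change 2.24 ± 0.339, adjusted p = 0.000136). Lyz2, lysozyme, had 68.6, 118 and 54.2 CPM at P3 and 23.6, 25.7 and 11.04 CPM at P0 (change 2.0 ± 0.325, adjusted p = 0.000303), and Mpeg1, perforin-2, changed by 1.58 ± 0.306 (adjusted p = 0.00134). Csf1r, the receptor on which macrophages depend, was at 87.8, 95.1 and 73.3 CPM at P3 and 116, 121 and 109.8 CPM at P0, so that all P3 libraries lay below all P0 libraries, and did not pass (-0.44 ± 0.166, adjusted p = 0.0929). Mrc1 at 0.12 ± 0.269 (adjusted p = 0.829) and C1qb at 0.54 ± 0.287 (adjusted p = 0.241) did not pass either. The order of P3 replicate 2, then 1, then 3 held for 14 of the 18 macrophage markers, and also for 11 of 13 loop of Henle, 14 of 20 tubular injury and 8 of 12 principal cell markers. The part of these cells in the interferon genes was not tested. Of 14 lymphocyte markers 5 were in the table, and Cd4, at 1.19, 1.27 and 2.17 CPM at P3 and 0.496, 0.827 and 0.693 CPM at P0, was the 1 called (change 1.19 ± 0.365, adjusted p = 0.0357). That call was lost without P0 replicate 1 or 3 or P3 replicate 3. The number of macrophage markers called was 3 without P0 replicate 3 or without P3 replicate 1 or 2, and 4 without P0 replicate 2.

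**Figure D2:**
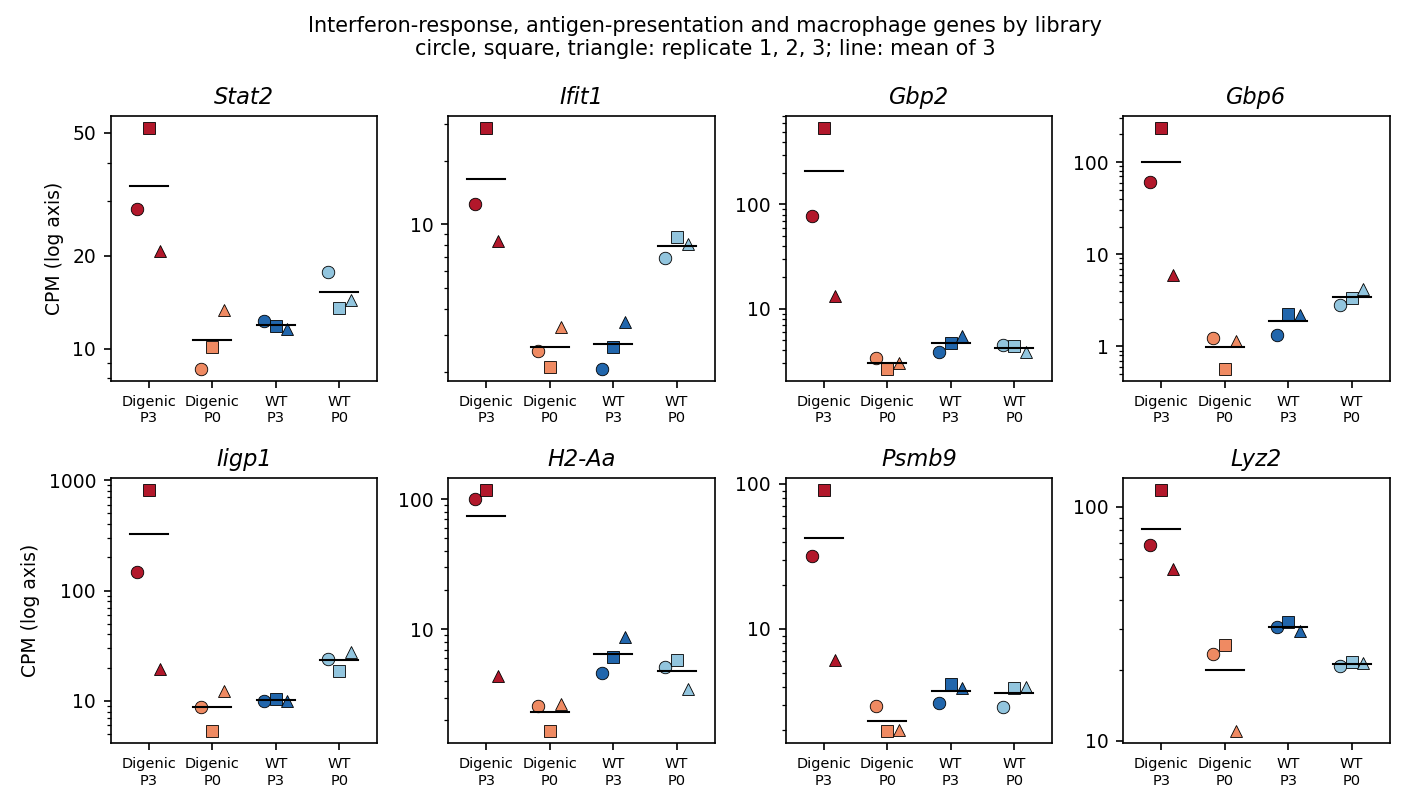
CPM on a log axis of 8 genes of the interferon response, antigen presentation and macrophages in digenic P3, digenic P0, WT P3 and WT P0 libraries (3 each, mean as a line). Replicate 2 is the highest digenic P3 library in each panel, and in H2-Aa replicate 3 lies at 4.42 CPM, close to WT.

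The called proximal tubule markers all rose. The digenic P3 libraries lay all above the P0 libraries for 19 of 36 measured markers (15.8% of all genes) and all below for 5 (14.7%). By the test 16 of the 36 rose and 0 fell, with a median of 0.75, and in WT kidneys 9 rose and 2 fell, with a median of 0.08. Over all genes 5.93% rose in digenic and 12.8% in WT kidneys. Miox (ENSMUSG00000022613, chromosome 15: 89334398 to 89337015), which begins the breakdown of myo-inositol in the proximal tubule, had 227, 212 and 322 CPM in digenic P3 libraries and 10.7, 9.98 and 10.1 CPM in digenic P0 libraries, the smallest adjusted p of the named genes (change 4.63 ± 0.332, adjusted p = 4.94e-10). In WT it had 425, 486 and 482 CPM at P3 and 186, 189.9 and 100.2 CPM at P0. Digenic kidneys therefore held far less Miox than WT at P0, and at P3 all digenic libraries still lay below all WT libraries. The difference of the change from WT was 3.08 ± 0.413 (adjusted p = 0.000621) and was kept in each of 22 alternatives.

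Kap, kidney androgen-regulated protein, had 490.1, 393 and 525 CPM in digenic P3 and 42.6, 32.8 and 30.4 CPM in digenic P0 libraries (change 3.73 ± 0.391, adjusted p = 2.28e-06), against 645, 796 and 969.7 CPM in WT P3 and 328, 805 and 152 CPM in WT P0 libraries. Its difference from WT was 2.83 ± 0.506 (adjusted p = 0.00701). Both Kap calls were kept with sex as a term in the fit, and the difference was lost with the groups compared alone in the fit and with the female digenic libraries alone, which leave 1 library at P0. Prodh2, which breaks down hydroxyproline, had 37.8, 35.2 and 39.8 CPM at P3 and 5.68, 10.2 and 5.03 CPM at P0 (change 2.42 ± 0.288, adjusted p = 1.13e-05). Slc13a3, a dicarboxylate transporter, had 99.2, 125 and 112 CPM at P3 and 17.8, 28.6 and 12.1 CPM at P0 (change 2.52 ± 0.325, adjusted p = 2.77e-05). Haao, an enzyme that leads tryptophan breakdown towards NAD, moved in opposite directions in the genotypes. It had 2.45, 2.67 and 4.24 CPM in digenic P3 and 0.673, 0.480 and 0.679 CPM in digenic P0 libraries, against 4.58, 5.84 and 7.32 CPM in WT P3 and 14.5, 18.1 and 9.85 CPM in WT P0 libraries. The changes were 2.36 ± 0.406 (adjusted p = 0.000433) in digenic and -1.26 ± 0.364 (adjusted p = 0.0127) in WT, and their difference was 3.61 ± 0.545 (adjusted p = 0.00244), kept in each of 22 alternatives.

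Transporters of the proximal brush border and basolateral membrane followed with smaller changes. Slc34a1, the main phosphate transporter, had 990.5, 852 and 1126 CPM at P3 and 493, 457 and 521 CPM at P0 (change 1.01 ± 0.224, adjusted p = 0.00415), Slc22a12, a urate transporter, changed by 1.09 ± 0.235 (adjusted p = 0.00328) and Slc5a2, the glucose transporter SGLT2, by 0.90 ± 0.246 (adjusted p = 0.0190). Gatm, which makes the creatine precursor, changed by 1.37 ± 0.286 (adjusted p = 0.00249). The endocytic receptors did not pass, with Lrp2 at -0.33 ± 0.208 (adjusted p = 0.336) and Cubn at 0.11 ± 0.223 (adjusted p = 0.796), nor did the factor Hnf4a at -0.31 ± 0.163 (adjusted p = 0.241). At P0 18 of the 36 markers had all digenic libraries below all WT libraries (11.8% of all genes did), and at P3 8 of 36 did (8.28% of all genes). Without P3 replicate 3 the number that rose was 13 and 2 fell. Without P0 replicate 3 it was 12.

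Intercalated cells, which secrete acid or base in the collecting duct, showed a larger share still: 9 of 14 markers rose and 0 fell, with a median of 1.02, and in WT 6 rose and 1 fell, with a median of 0.47. Over all genes 5.93% rose in digenic and 12.8% in WT kidneys. Insrr, a receptor that senses alkaline fluid, had 13.1, 11.5 and 9.94 CPM at P3 and 3.29, 2.23 and 2.41 CPM at P0 (change 2.13 ± 0.290, adjusted p = 4.84e-05). Atp6v1b1, a proton pump subunit, had 106, 100.1 and 81.2 CPM at P3 and 44.8, 40.6 and 40.2 CPM at P0 (change 1.20 ± 0.175, adjusted p = 9.29e-05). Slc26a4, pendrin, changed by 1.87 ± 0.282 (adjusted p = 0.000136) and the bicarbonate transporter Slc4a9 by 1.29 ± 0.222 (adjusted p = 0.000433). All P3 libraries lay above all P0 libraries in these 4 genes. The factor Foxi1, which specifies these cells, changed by 0.72 ± 0.158 (adjusted p = 0.00370). For 0 of the 14 did the change differ from WT past the test, where 0.693% of all genes did, so that this count says little on likeness to WT. At P0 9 of the 14 had all digenic libraries below all WT libraries (11.8% of all genes did). At P3 6 of the 14 did (8.28% of all genes).

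The lists of the loop of Henle, distal tubule, principal cells and podocytes had fewer called members. Over all genes 5.93% rose and 3.82% fell in digenic kidneys. In lists of 10 to 14 markers, a count of 0 or 1 in either direction lies near these shares. Of 13 loop of Henle markers 3 rose and 0 fell, among them Umod, uromodulin, with 586, 629 and 434 CPM at P3 and 147, 194 and 253 CPM at P0 (change 1.47 ± 0.244, adjusted p = 0.000307). Umod rose in WT by nearly as much, 1.24 ± 0.242 (adjusted p = 0.000763). Of 10 distal tubule markers 1 rose and 1 fell. Pvalb, a calcium-binding protein, was at 0.903, 0.690 and 0.771 CPM at P3 and 0.177, 0 and 0 CPM at P0 (change 3.89 ± 0.703, adjusted p = 0.000671). With 2 of its P0 libraries at 0, the fitted change of Pvalb ran from 3.24 to 8.70 over the alternatives, and the call was lost with the 6 digenic libraries alone. The calcium channel Trpv5 changed by -1.30 ± 0.396 (adjusted p = 0.0357), a call lost without any 1 of 5 of the 6 digenic libraries. Of 12 principal cell markers, Hsd11b2, which protects the mineralocorticoid receptor from cortisol-like steroids, rose (1.27 ± 0.312, adjusted p = 0.00943), and the sodium channel subunit Scnn1a fell (-0.82 ± 0.230, adjusted p = 0.0224). The call of Hsd11b2 was lost without P0 replicate 3, and that of Scnn1a without P0 replicate 3 or any P3 library. Of 14 podocyte markers 0 were called, with a median of 0.16.

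**Figure D3:**
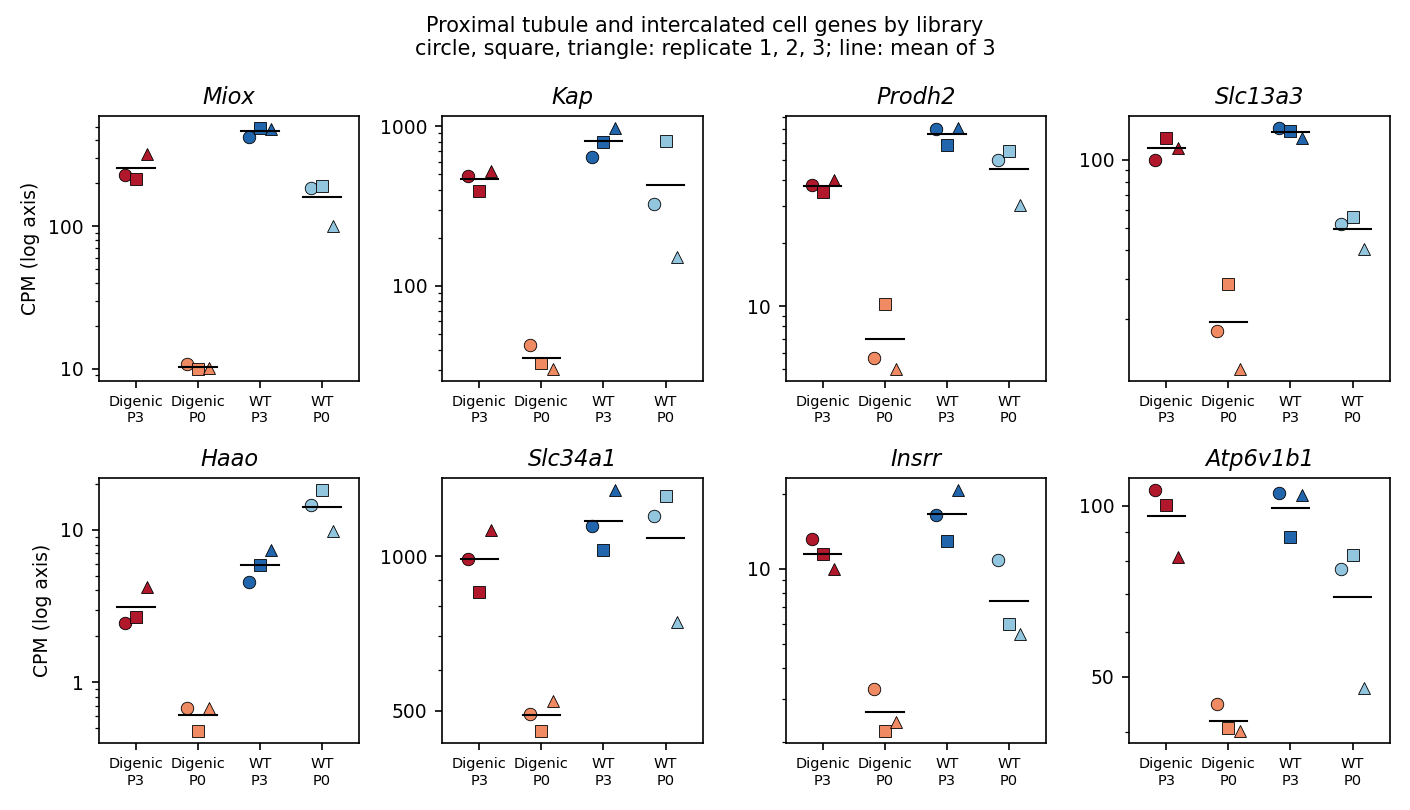
CPM on a log axis of 6 proximal tubule genes and 2 intercalated cell genes (Insrr and Atp6v1b1) in digenic P3, digenic P0, WT P3 and WT P0 libraries (3 each, mean as a line). The digenic P3 libraries lie above the digenic P0 libraries in all 8 panels, and Miox at P0 is near 10 CPM in each digenic library.

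Of 20 measured markers of tubular injury 9 fell, 1 rose and 10 did not pass in digenic kidneys, with a median of -0.59, where 3.82% of all genes fell. In WT 8 fell and 0 rose, with a median of -0.38, where 11.9% of all genes fell. Hmox1, heme oxygenase, had 47.4, 50.9 and 65.3 CPM at P3 and 271, 307 and 575 CPM at P0 (change -2.82 ± 0.411, adjusted p = 0.000130), and the WT change was -3.15 ± 0.417. Gdf15, a stress-induced cytokine, had 9.41, 11.1 and 4.78 CPM in digenic P3 libraries and 24.6, 26.6 and 31.6 CPM in digenic P0 libraries (change -1.71 ± 0.315, adjusted p = 0.000776). In WT it stood at 2.62, 3.37 and 7.39 CPM at P3 and 4.47, 4.74 and 5.23 CPM at P0. The digenic libraries lay above all WT libraries at P0 and overlapped them at P3, but the difference of the change, -1.61 ± 0.443, did not pass (adjusted p = 0.0887).

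The epithelial keratins Krt8, Krt18, Krt19 and Krt20 fell. Krt20 had 2.71, 6.01 and 4.15 CPM at P3 and 13.2, 26.3 and 17.9 CPM at P0 (change -2.16 ± 0.439, adjusted p = 0.00200), and Krt8 changed by -0.87 ± 0.178 (adjusted p = 0.00203). Sprr2f, a cornified-envelope gene switched on in stressed epithelia, had 2.93, 4.48 and 1.87 CPM at P3 and 14.9, 20.6 and 12.9 CPM at P0 (change -2.38 ± 0.506, adjusted p = 0.00306). Vcam1, an adhesion molecule, was the 1 that rose (0.80 ± 0.182, adjusted p = 0.00502). The injury receptor Havcr1 did not pass, at 10.1, 20.1 and 2.77 CPM in digenic P3, 4.94, 14.9 and 6.31 CPM in digenic P0, 0.925, 0.237 and 1.13 CPM in WT P3 and 0.418, 1.05 and 0.417 CPM in WT P0 libraries. Every digenic library held more Havcr1 than every WT library. Lcn2 did not pass either (-0.15 ± 0.294, adjusted p = 0.792). The number of injury markers that fell was 5 without P0 replicate 3 or without P3 replicate 1 or 3, and 10 without P3 replicate 2.

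Called nephron progenitor genes mostly fell and called genes of the early nephron rose. Of 16 progenitor markers 5 fell and 1 rose, where 3.82% of all genes fell and 5.93% rose. In WT 5 fell and 2 rose, where 11.9% of all genes fell and 12.8% rose. Six2, which keeps progenitors undifferentiated (ENSMUSG00000024134, chromosome 17: 85684277 to 85688274), had 8.63, 9.31 and 11.4 CPM at P3 and 42.5, 36.5 and 37.3 CPM at P0 (change -1.98 ± 0.284, adjusted p = 7.18e-05). Cited1, of the uninduced progenitors, had 3.42, 3.41 and 4.63 CPM at P3 and 19.9, 19.4 and 22.5 CPM at P0 (change -2.43 ± 0.285, adjusted p = 1.13e-05). The WT changes of the pair were -1.98 ± 0.284 and -2.56 ± 0.286, and the differences from WT were -0.0024 ± 0.384 and 0.13 ± 0.385 (adjusted p = 0.999 and 0.955). Spock2 changed by -1.34 ± 0.196 (adjusted p = 9.29e-05). Gdnf, the ligand that drives ureteric branching, changed by -0.91 ± 0.268 (adjusted p = 0.0282), and Sall1 (0.21 ± 0.155, adjusted p = 0.435) did not pass. Of 16 genes of the nascent nephron 6 rose and 0 fell: Dll1, a Notch ligand (0.90 ± 0.117, adjusted p = 2.77e-05), Lhx1, a factor of the renal vesicle (0.96 ± 0.171, adjusted p = 0.000567), and Wnt4, which induces the vesicle (0.94 ± 0.175, adjusted p = 0.000861), were among them. Wnt4 had 138, 119 and 119 CPM at P3 and 68.8, 62.5 and 63.9 CPM at P0, without overlap. In the ureteric tip 2 of 13 rose, Wnt9b (1.37 ± 0.339, adjusted p = 0.0103) and Adamts18 (1.23 ± 0.324, adjusted p = 0.0149). Both calls were lost without P0 replicate 3 or P3 replicate 1, and that of Adamts18 also without P0 replicate 1.

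Imprinted fetal growth genes fell, 7 of 14 measured, with a median of -0.61, and 4 of the 14 fell in WT. Over all genes 3.82% fell in digenic and 11.9% in WT kidneys, shares that stand beside the falls of each list in this paragraph. Igf2, the fetal growth factor, had 295, 329 and 449.6 CPM at P3 and 924, 675 and 866 CPM at P0 (change -1.20 ± 0.241, adjusted p = 0.00180), and its WT change was -1.42 ± 0.242. Mest changed by -0.81 ± 0.157 (adjusted p = 0.00115) and Plagl1, a zinc finger factor of the imprinted network, by -0.70 ± 0.144 (adjusted p = 0.00217). H19 did not pass (-0.83 ± 0.275, adjusted p = 0.0528). The number that fell was 4 without P3 replicate 1. Of 18 glycolysis genes 3 fell: the glucose transporter Slc2a1 (-1.28 ± 0.228, adjusted p = 0.000620), Pgk1 (-0.84 ± 0.197, adjusted p = 0.00660) and Gapdh (-0.78 ± 0.197, adjusted p = 0.0110), the last of which was lost without P0 replicate 3. In WT 12 of the 18 fell, and for 0 of them did the difference pass the test. Of 24 oxidative phosphorylation genes 4 fell, Atp5a1 with the smallest adjusted p (-0.42 ± 0.0889, adjusted p = 0.00269), and in WT 16 fell. Of 20 fatty acid oxidation genes 3 rose, where 5.93% of all genes did, Eci1 with the smallest adjusted p (0.64 ± 0.129, adjusted p = 0.00191).

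Ren1, renin, had 235, 137 and 232 CPM at P3 and 417, 513 and 645 CPM at P0, without overlap (change -1.38 ± 0.291, adjusted p = 0.00278), and its WT change was -1.23 ± 0.290. Lox, which crosslinks collagen, was the 1 of 17 matrix genes called (-0.85 ± 0.129, adjusted p = 0.000136). Among 12 endothelial genes, Tie1, an angiopoietin co-receptor, fell (-0.65 ± 0.133, adjusted p = 0.00205). So did Robo4 (-0.45 ± 0.143, adjusted p = 0.0446), a call lost without P0 replicate 3 or any P3 library. Of 14 YAP targets 4 fell, led by Ctgf (-1.06 ± 0.262, adjusted p = 0.0101). The call of Ctgf was lost without P3 replicate 1. In WT 5 of the 14 YAP targets, 3 of the 12 endothelial genes and 3 of the 17 matrix genes fell. Over all genes 3.82% fell in digenic and 11.9% in WT kidneys. Of the largest falls outside the lists, Lpo, lactoperoxidase, had 0.782, 0.924 and 0.735 CPM at P3 and 6.07, 8.03 and 10.3 CPM at P0 (change -3.32 ± 0.458, adjusted p = 5.25e-05). Acnat2, a fatty acid conjugating enzyme, changed by -2.71 ± 0.520 (adjusted p = 0.00128), Hrct1 by -1.68 ± 0.262 (adjusted p = 0.000186) and the ciliary gene Cfap52 by -1.70 ± 0.352 (adjusted p = 0.00230). Lyve1, a receptor of lymphatic endothelium, changed by -1.64 ± 0.482 (adjusted p = 0.0284) and was not called without P0 replicate 3 or P3 replicate 1 or 2.

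**Figure D4:**
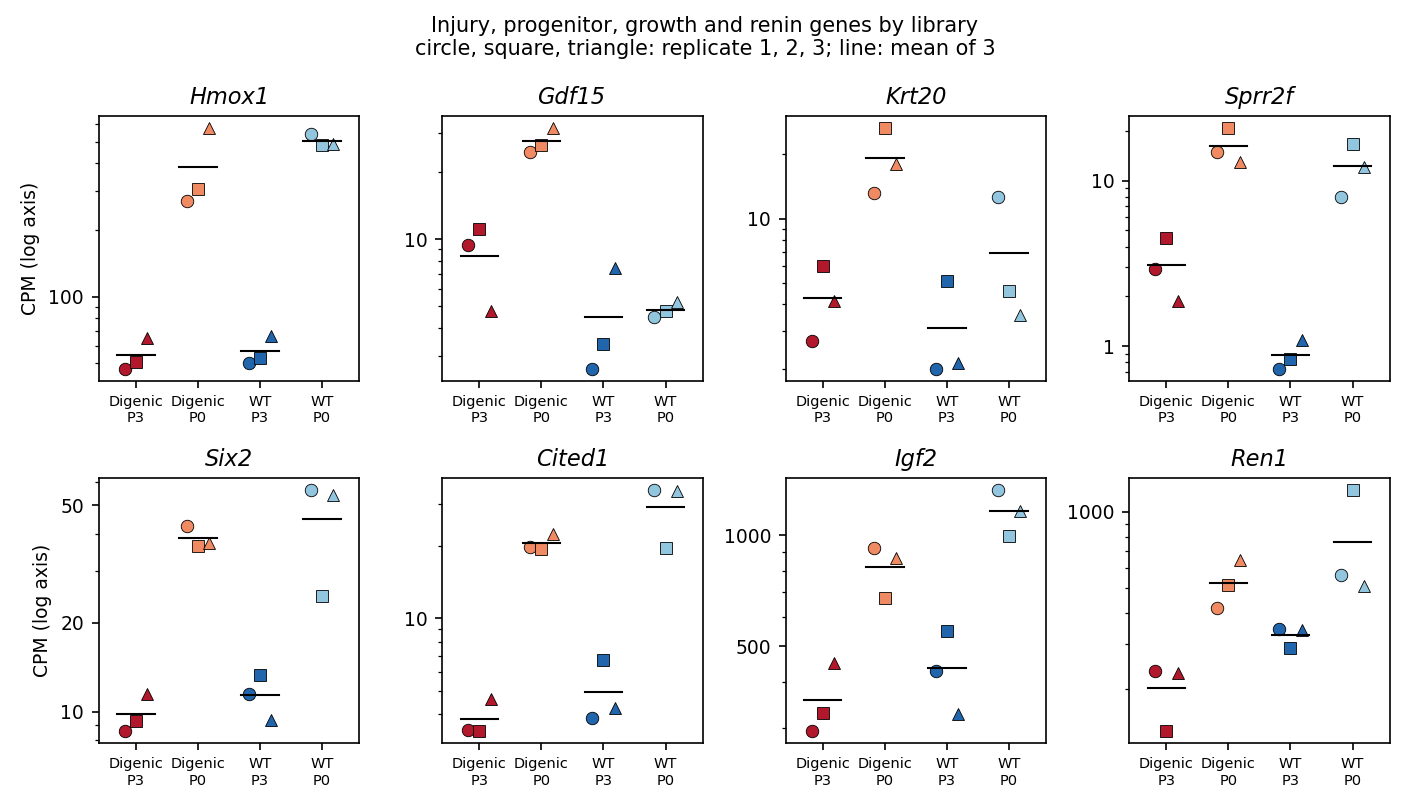
CPM on a log axis of 8 genes lower at P3 (tubular injury: Hmox1, Gdf15, Krt20 and Sprr2f; progenitors: Six2 and Cited1; Igf2 and Ren1) in digenic P3, digenic P0, WT P3 and WT P0 libraries (3 each, mean as a line). The 3 digenic P3 libraries lie below the 3 digenic P0 libraries in all 8 panels, and Gdf15 lies above WT at P0, where the digenic libraries lie between 24.6 and 31.6 CPM.

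Other lists had few or no called members in digenic kidneys. Of 32 cell cycle genes 0 were called, where 9.75% of all genes were, and their median was 0.02. In WT 16 rose, where 12.8% of all genes did, with a median of 0.39. The difference of the change passed for 0 of the 32 and its median was -0.36. Mki67, the proliferation marker, averaged 138 ± 23.1 CPM in digenic P3 and 115 ± 15.5 CPM in digenic P0 kidneys, against 142 ± 9.20 CPM in WT P3 and 79.5 ± 20.6 CPM in WT P0 kidneys (SD, n = 3 libraries each). Every WT library lay below every digenic library at P0, and the libraries overlapped at P3. Of 20 cystic disease genes 2 rose, Umod and Glis2 (0.51 ± 0.114, adjusted p = 0.00429), against 10 in WT. Over all genes 5.93% rose in digenic and 12.8% in WT kidneys. Of 10 hedgehog genes 0 were called, of 10 stromal markers Foxd1 alone (-0.60 ± 0.183, adjusted p = 0.0334), which was lost without 5 of the 6 digenic libraries in turn, and of 16 immediate early genes Btg2 alone (-0.53 ± 0.128, adjusted p = 0.00819), lost without P0 replicate 3.

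The test of whether the digenic change differed from that in WT called 125 genes (0.693%), with 99 positive (0.549%) and 26 negative (0.144%). WT kidneys changed in 4465 genes over the same days, 2314 up (12.8%) and 2151 down (11.9%). Of the 1760 genes called in digenic kidneys, 955 (54.3%) were called in WT in the same direction, which is 21.4% of the WT calls, and 22 in the opposite direction. Across genes the changes of the genotypes, which share no library, correlated with Pearson's r = 0.47 and Spearman's rho = 0.62; genes are not independent replicates. Of the 99 positive differences 89 were of genes that rose in digenic kidneys and 31 of genes that fell in WT, and 35 belonged to the type I, GTPase and antigen-presentation lists. Of the 26 negative ones, 24 rose in WT and 3 fell in digenic kidneys.

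**Figure D5:**
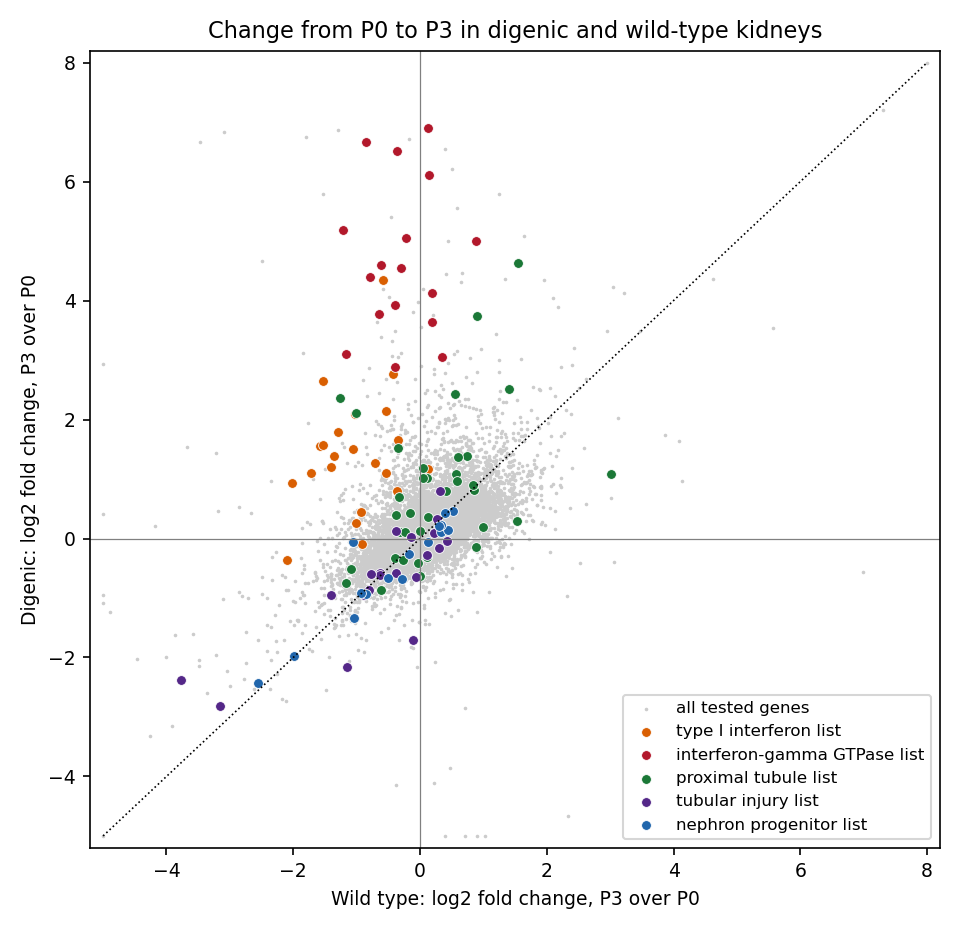
Log2 fold change, P3 over P0, in digenic kidneys (vertical) against that in WT kidneys (horizontal), with 5 gene lists in colour and all tested genes in grey. The dotted line marks equal change, and 10 genes beyond an axis are drawn at its edge. The GTPase list has medians of 4.54 in digenic and -0.36 in WT kidneys, and the injury list of -0.59 and -0.38.

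The positive differences were led by interferon-inducible GTPases. Gbp6 had 60.3, 233 and 5.93 CPM in digenic P3 and 1.24, 0.574 and 1.15 CPM in digenic P0 libraries, against 1.33, 2.23 and 2.17 CPM in WT P3 and 2.80, 3.33 and 4.20 CPM in WT P0 libraries, a difference of 7.51 ± 1.39 (adjusted p = 0.0111). Tgtp1 (6.86 ± 1.53), Tgtp2 (6.78 ± 1.64), Iigp1 (6.4 ± 1.43), Gbp2 (5.97 ± 1.32) and Igtp (5.26 ± 1.13) followed, with adjusted p-values of 0.0326, 0.0495, 0.0326, 0.0326 and 0.0275. Within the type I list the smallest adjusted p were those of Ifit1 (4.18 ± 0.683, adjusted p = 0.00346), Rtp4, a chaperone-like interferon-induced gene (3.14 ± 0.517, adjusted p = 0.00346) and Usp18, which removes ISG15 and damps the response (2.75 ± 0.486, adjusted p = 0.00582). These 3 passed in each of 22 alternatives. In them the digenic libraries were below WT at P0 and above WT at P3: Ifit1 had 2.08, 2.64 and 3.44 CPM in WT P3 and 6.96, 8.69 and 8.09 CPM in WT P0 libraries, and Rtp4 21.3, 42.2 and 16.3 CPM in digenic P3 and 10.7, 7.27 and 9.07 CPM in digenic P0, against 7.44, 8.50 and 6.79 CPM in WT P3 and 23.4, 21.0 and 23.4 CPM in WT P0. The calls of these GTPases depended on single libraries. Of 22 alternatives, the difference was lost in 5 for Gbp6, 10 for Igtp, 12 for Gbp2 and 13 each for Tgtp1 and Iigp1. Gbp6 was lost without digenic P0 replicate 2, digenic P3 replicate 2 or WT P3 replicate 1, and its difference ran from 5.91 to 8.29. Igtp, Gbp2, Tgtp1 and Iigp1 were each lost without digenic P3 replicate 2, without any digenic P0 or WT P3 library, and without WT P0 replicate 3, and the last 3 of them also without WT P0 replicate 1. Of 17 list members 12 passed, of 22 type I genes 15, of 15 antigen-presentation genes 8, of 18 macrophage markers 2 (Aif1 and Fcgr1), and of 36 proximal tubule markers 5. All of these differences were positive, where 0.549% of all genes had a positive one. The difference was lost in 11 of the alternatives for H2-Aa, 8 for Psmb9, 5 for Tap1, 9 for Aif1 and 11 for Fcgr1. Each was lost without digenic P3 replicate 2 and with the groups compared alone in the fit.

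The named negative differences were smaller. Gldc, which cleaves glycine (ENSMUSG00000024827, chromosome 19: 30098447 to 30175429), was the 1 named with a digenic fall: it had 13.2, 12.6 and 16.2 CPM in digenic P3 and 35.7, 80.8 and 72.1 CPM in digenic P0 libraries, against 15.8, 14.5 and 16.9 CPM in WT P3 and 20.3, 15.6 and 13.1 CPM in WT P0 libraries. At P0 every digenic library was above every WT library, and at P3 they overlapped (difference -2.12 ± 0.466, adjusted p = 0.0275). The other 9 named rose in WT with no call in digenic kidneys. Chek2, a DNA damage checkpoint kinase, had 11.8, 10.6 and 11.2 CPM in digenic P3 and 12.1, 13.6 and 7.97 CPM in digenic P0 libraries, against 12.5, 11.3 and 12.8 CPM in WT P3 and 3.24, 6.44 and 5.29 CPM in WT P0 libraries (difference -1.29 ± 0.297, adjusted p = 0.0326). The genotypes overlapped at P3, and every WT P0 library lay below every other library named here. Cntln (-1.07 ± 0.232) and Cep128 (-0.92 ± 0.214), of the centrosome, the nuclear envelope gene Syne1 (-1.06 ± 0.253), the DNA repair gene Fanci (-0.98 ± 0.231), Fkbp14 (-0.97 ± 0.223), the amino acid transporter Slc7a8 (-0.96 ± 0.219), the spindle checkpoint gene Mad1l1 (-0.94 ± 0.217) and Aldh8a1 (-1.98 ± 0.486) make up the named 10, with adjusted p-values from 0.0251 to 0.0482. Across genes, log2 length was correlated with the deviation of a library's log2 level from the gene's mean over all 36 libraries. The correlations were -0.0558 to 0.0544 in digenic P0 and -0.175 to -0.0612 in WT P0 libraries. With that trend removed, 9 of the 10 stayed called and Syne1 did not. Over 22 alternatives these calls were lost often: in 7 for Gldc and Cntln, 9 for Slc7a8, 10 for Mad1l1, 11 for Chek2 and Fkbp14, 12 for Cep128 and Fanci, 13 for Aldh8a1 and 15 for Syne1. Gldc was lost without WT P0 replicate 3, any WT P3 library, digenic P0 replicate 2 or digenic P3 replicate 1 or 2.

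The count of differences from WT moved with single libraries. It was 19 without WT P3 replicate 1, 48 without WT P3 replicate 2, 59 without WT P3 replicate 3, 81 without WT P0 replicate 1, 280 without WT P0 replicate 2 (124 positive and 156 negative) and 54 without WT P0 replicate 3. It was 20 without digenic P3 replicate 2, 209 without digenic P3 replicate 3, 69 without digenic P0 replicate 1 and 31 without digenic P0 replicate 2. It was 31 with the 12 libraries of the groups compared alone in the fit.

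Against the single mutants fewer genes differed. The digenic change differed from that in Pkhd1-/- kidneys for 70 genes (0.388%), 68 positive (0.377%) and 2 negative (0.0111%), and from that in Pkd1-RC/RC kidneys for 7 (0.0388%), 6 positive (0.0332%) and 1 negative (0.00554%). At an unadjusted p under 0.05 in the same tests there were 1423 and 728 genes of 18049, and 1822 against WT. A share of 0.05 of the tested genes would pass that threshold if no gene differed. The 728 against Pkd1-RC/RC lie below that share. Of the 125 that differed from WT, 49 also differed from Pkhd1-/- and 5 from Pkd1-RC/RC; these tests share the digenic libraries. Gbp6 averaged 99.6 ± 118 CPM in digenic P3 and 0.988 ± 0.361 CPM in digenic P0 kidneys, against 2.26 ± 0.335 and 3.16 ± 2.15 CPM in Pkd1-RC/RC and 1.43 ± 0.662 and 1.85 ± 0.580 CPM in Pkhd1-/- kidneys at P3 and P0 (SD, n = 3 libraries each). The difference was 7.04 ± 1.40 from Pkhd1-/- (adjusted p = 0.0240) and 7.15 ± 1.38 from Pkd1-RC/RC (adjusted p = 0.0504). Levels in both single mutants were near WT, and the test against Pkd1-RC/RC missed the threshold narrowly.

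The 6 positive differences from Pkd1-RC/RC, named after their values were seen, were Evi2a (2.27 ± 0.358), Phf11d (2.98 ± 0.459), Rnf213 (1.94 ± 0.328), Dhx58, an RNA sensor regulator (2.17 ± 0.409), Ifi203 (1.89 ± 0.359) and Ifit1 (3.68 ± 0.676), with adjusted p-values from 0.00529 to 0.0340. Phf11d, for example, had 3.59, 5.64 and 3.01 CPM at P3 and 1.04, 0.734 and 0.624 CPM at P0. The negative one was Selenbp2, a selenium-binding protein, with 17.0, 18.8 and 18.9 CPM at P3 and 30.9, 44.1 and 48.6 CPM at P0 in digenic kidneys, and means of 17.7 CPM at P3 and 18.3 CPM at P0 in Pkd1-RC/RC kidneys (difference -1.13 ± 0.217, adjusted p = 0.0371). The 2 negative differences from Pkhd1-/- were Mast2 (-0.72 ± 0.166) and Smtn (-0.61 ± 0.140), both at adjusted p = 0.0461. Miox differed from Pkhd1-/- by 2.17 ± 0.409 (adjusted p = 0.0127) and from Pkd1-RC/RC by 1.42 ± 0.406 (adjusted p = 0.248). Its means at P3 and P0 were 254 and 10.3 CPM in digenic, 484 and 52.3 CPM in Pkd1-RC/RC and 518 and 94.3 CPM in Pkhd1-/- kidneys. By these means the P0 levels ran, from low to high, digenic, Pkd1-RC/RC, Pkhd1-/- and then WT. Haao differed from Pkhd1-/- by 3.17 ± 0.545 (adjusted p = 0.0110). Without digenic P3 replicate 3 the counts were 112 against Pkd1-RC/RC and 161 against Pkhd1-/-, and without digenic P3 replicate 2 they were 3 and 6. Against Pkd1-RC/RC the count was 4 without digenic P0 replicate 2 or P3 replicate 1, 2 without digenic P0 replicate 3, 17 without Pkd1-RC/RC P0 replicate 1, 2 without its P0 replicate 3 or P3 replicate 1 or 2, and 3 without its P3 replicate 3. Against Pkhd1-/- it was 33, 12 and 12 without digenic P0 replicate 1, 2 and 3, 29 without Pkhd1-/- P0 replicate 2, and 6, 14 and 21 without Pkhd1-/- P3 replicate 1, 2 and 3.

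Levels at P12, given as description over 3 libraries a group, place these changes in the longer course. They follow the sample labels. The column header of digenic P12 replicate 1 names P3 instead, and that of Pkd1-RC/RC P12 replicate 2 names Pkhd1. Both libraries entered the fit over all 36 under their labels. Gbp2 averaged 3.02 ± 0.357, 209 ± 286 and 189 ± 265 CPM in digenic kidneys at P0, P3 and P12 (SD, n = 3 each), and 4.25, 4.68 and 10.4 CPM in WT. H2-Aa averaged 2.31 ± 0.557, 73.7 ± 60.5 and 603 ± 462 CPM in digenic kidneys, and Lyz2 20.1 ± 7.91, 80.1 ± 33.3 and 226 ± 127 CPM. The mean of Gbp2 at P12 lay within 1 SD of that at P3, while the means of H2-Aa and Lyz2 were highest at P12. Miox averaged 10.3 ± 0.378, 254 ± 59.7 and 272 ± 13.1 CPM in digenic kidneys, against 159, 464 and 851 CPM in WT. Gdf15 averaged 27.6 ± 3.56, 8.43 ± 3.27 and 35.1 ± 4.53 CPM in digenic kidneys, so that its P3 level was the lowest of the 3 ages.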

How the data were processed

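RNA of whole mouse kidneys was sequenced by the authors on a HiSeq4000 from libraries of 4 genotypes and 3 ages, 36 in all. Per the submitters' processing notes and design text, alignment used mm10 and TopHat2 with Bowtie, run within MAP-RSeq 2.1.0. The notes also name featureCounts and edgeR. No source used here states strandedness, so that overlapping antisense genes cannot be told apart. Of the values deposited by the authors, whole-number counts of reads for each gene, not normalized, entered every test. Normalized values deposited with them were not used. Gene lengths beside the counts served 1 alternative. The table has 18049 genes, the lowest of which averages 8.75 counts, and 17864 identifiers (99.0%) were in GENCODE M21, which gave positions.

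Counts were filtered with filterByExpr (0 genes removed), scaled by TMM and fitted with edgeR 4.0.16 (R 4.3.3, limma 3.58.1) with a term per group over all 36 libraries, estimated dispersion and a robust quasi-likelihood fit with 24 residual degrees of freedom, so that all groups share 1 estimate of the spread. Differences between genotypes are interaction contrasts. Total counts of 51411240 to 80789299 per library make counting error small for all but the lowest genes, so that the number of libraries limits precision. Groups came from the sample labels. By Xist and Y-linked counts, the sex in the header matched in 33 of 36 libraries and in all digenic and WT libraries. Those that did not match entered the tests against the single mutants. Pkhd1-/- P0 replicate 1 and Pkd1-RC/RC P3 replicate 1 were male by header and female by counts. Pkhd1-/- P3 replicate 2 was female by header and male by counts. Samples with the same replicate number did not deviate together, so the numbers were not used as pairs. Libraries of a group differed by more than sampling noise. The procedure was tested on simulated data.

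Named genes are Pkhd1, Pkd1 and Pkd2; the 12 largest rises and falls among the genes called, at 1 log2 CPM or more on average, with no overlap between the libraries, an official symbol and no sex linkage; the 10 largest positive and negative called differences from WT under the same limits on level, symbol and sex linkage; and for each list up to 4 called members and 3 with a called difference. A result on 1 gene is not reported here. Other genes are members of the lists, given to show the range of a list. The gene lists, named genes and comparisons were chosen with earlier results of these data known. Alternatives were DESeq2 1.42.0, RLE scaling, no filter or at least 1 CPM in 3 libraries, a replicate block, sex, a gene length trend (lowess span 0.3), a 2-fold threshold, the groups compared alone, and each library left out. Fits of the P0 and P3 libraries alone and of female digenic libraries were added after the data were seen.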

Additional observations from a re-analysis of the deposited data

Results flagged for a closer look

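Results in which the change from P0 to P3 differed between genotypes by the interaction test (edgeR's quasi-likelihood test, Benjamini-Hochberg adjusted p under 0.05) are given here as values. The digenic change differed from WT in 125 genes, from Pkhd1-/- in 70 and from Pkd1-RC/RC in 7.

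Among the interferon-inducible GTPases, the log2 difference of the change, digenic minus WT, was 7.51 for Gbp6, 6.86 for Tgtp1, 6.78 for Tgtp2, 6.4 for Iigp1, 5.97 for Gbp2, 5.26 for Igtp, 5.19 for Ifi47, 4.83 for Gbp4, 4.32 for Irgm2 and 4.27 for Gbp3. In all 10 digenic P3 replicate 2 was the highest library and replicate 3 the lowest. For type I interferon genes it was 4.18 for Ifit1, 3.14 for Rtp4, 2.75 for Usp18, 2.68 for Oasl2 and 2.01 for Stat2. For antigen presentation it was 4.55 for H2-Aa, 4.15 for Psmb9, 4.03 for Cd74 and 4.0 for Tap1, and for macrophage markers 2.26 for Fcgr1 and 2.12 for Aif1. The calls of H2-Aa, Psmb9, Tap1, Fcgr1 and Aif1 were lost without digenic P3 replicate 2.

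Among proximal tubule genes the difference was 3.61 for Haao, 3.08 for Miox, 2.83 for Kap and 1.87 for Prodh2. Negative differences were -2.12 for Gldc, -1.98 for Aldh8a1, -1.29 for Chek2, -1.07 for Cntln, -1.06 for Syne1, -0.98 for Fanci, -0.97 for Fkbp14, -0.96 for Slc7a8, -0.94 for Mad1l1 and -0.92 for Cep128.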

How the results depend on the processing

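With 3 libraries a group, the spread between the digenic P3 libraries limits the interferon genes, and 1 of them holds adrenal transcripts. Of the results on named genes, 1693 stayed on their side of the threshold under an alternative and 455 lost the call. No called result changed sign; Pkd1, not called, was at 0.17 and at -0.001 with female digenic libraries alone. Medians of gene lists moved by less than their spread in 553 cases and by more in 23. For the digenic change, the call count of 1760 was 750 with the groups compared alone, 622 at 2-fold or more, 1165 with the P0 and P3 libraries alone and 178 with female digenic libraries alone (1 at P0), and 770 to 1637 with 1 library left out. It was 2231 by DESeq2, 1268 with sex in the fit and 1655 with the replicate block. For WT, 4465 became 1464 with the groups compared alone and 856 at 2-fold or more, and 2806 to 5033 with 1 library left out. The difference from WT, 125, became 31 with the groups compared alone, 297 by DESeq2, 46 with female digenic libraries alone (25 positive and 21 negative) and 19 to 280 with 1 library left out. It was 98 with the replicate block. The difference from Pkd1-RC/RC, 7, became 0 with the groups compared alone (where 0 genes passed edgeR's test), 97 by DESeq2, 3 with the replicate block and 2 to 112 with 1 library left out. The difference from Pkhd1-/-, 70, became 24 with the groups compared alone, 177 by DESeq2, 38 with the replicate block, 39 with sex in the fit and 6 to 161 with 1 library left out. The cause of these shifts was not tested; fewer libraries in a fit leave fewer degrees of freedom. Deviations from the group means of digenic libraries with the same replicate number correlated by -0.0601, 0.0159 and 0.00376, so that the pairing is one of numbers only.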
